A study of Mus musculus with 35 samples.

Results

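The acute-phase and iron-handling genes described here are *Lcn2*, *Saa3*, *Ptx3*, *Hp*, *Steap4* and *Slc39a14*, 6 of the 55487 genes in each deposited table. They were taken by symbol, and each symbol matched 1 row in every table. RNA-Seq was performed on 27 libraries of primary mouse cardiac fibroblasts (CFs) and on 8 mouse hearts, in 4 tables. The CFs were isolated from adult mice and carried a control siRNA (si-NC) or 1 of 2 independent siRNAs against the transcript of IAMP, 4930523C07Rik, which encodes a micropeptide (si-IAMP-1 and si-IAMP-2). Each siRNA was present in 3 libraries without a cytokine, in 3 with IL-17 and in 3 with TGF-β, so every CF library had been transfected. The IL-17 cells had 24 h of siRNA and 24 h of IL-17, whereas the sources give no durations for the other CFs. The hearts came from C57BL/6 mice of 8 weeks, 4 heterozygous (Het) and 4 homozygous (KO) for a frameshift in the IAMP reading frame, in every cell of the animal. The Het controls carry the mutation on 1 allele. A frameshift need not change the level of its transcript, so the heart level of 4930523C07Rik (17.1 ± 1.33 CPM in Het and 16.0 ± 0.981 in KO, SD, n = 4) does not check the genotype.

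Acute-phase genes are switched on in inflammation by cytokines such as IL-6, IL-1β, TNF-α and IL-17, which act through NF-κB, C/EBP and STAT3 factors. Most acute-phase proteins come from the liver, but fibroblasts, adipocytes and macrophages also make some of them locally. Iron is withdrawn from invading microbes in the same response, by proteins that bind iron carriers or hemoglobin and by membrane proteins that move iron into cells. IL-17 is known to act on fibroblasts and epithelial cells, where *Lcn2* is a classical target, while TGF-β is best known for turning fibroblasts into myofibroblasts.

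In the GRCm38 annotation (GENCODE vM21), *Lcn2* (ENSMUSG00000026822) lies on chromosome 2 from 32384633 to 32388252, on the minus strand. *Saa3* (ENSMUSG00000040026) lies on chromosome 7 from 46711998 to 46715700, minus strand, and *Ptx3* (ENSMUSG00000027832) on chromosome 3 from 66219910 to 66225805, plus strand. *Hp* (ENSMUSG00000031722) lies on chromosome 8 from 109575128 to 109579172, minus strand. *Steap4* (ENSMUSG00000012428) lies on chromosome 5 from 7960457 to 7982213, plus strand, and *Slc39a14* (ENSMUSG00000022094) on chromosome 14 from 70303469 to 70351425, minus strand. All are protein-coding genes.

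Start regions were found in the RefSeq promoter table (GRCm38.p6) for *Lcn2*, *Saa3*, *Ptx3* and *Steap4*, 4 of the 6 genes. They are shown because these genes changed with the siRNAs or the cytokines, and because the inducers named above act through known motifs. Each run below holds 250 bases before the start and 30 after it, 5′ to 3′ on the gene's own strand, 280 bases in all. Capitals mark matches to GGGNNNNNCC (NF-κB), TTGCNNAA (C/EBP) and TTCNNNGAA (STAT), searched on both strands of 300-base windows.
Lcn2: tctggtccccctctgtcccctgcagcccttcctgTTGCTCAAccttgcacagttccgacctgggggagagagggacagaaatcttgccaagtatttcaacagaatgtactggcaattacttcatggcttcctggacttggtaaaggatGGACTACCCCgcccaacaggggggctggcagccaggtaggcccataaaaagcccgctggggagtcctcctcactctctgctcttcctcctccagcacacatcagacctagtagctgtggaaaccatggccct
Saa3: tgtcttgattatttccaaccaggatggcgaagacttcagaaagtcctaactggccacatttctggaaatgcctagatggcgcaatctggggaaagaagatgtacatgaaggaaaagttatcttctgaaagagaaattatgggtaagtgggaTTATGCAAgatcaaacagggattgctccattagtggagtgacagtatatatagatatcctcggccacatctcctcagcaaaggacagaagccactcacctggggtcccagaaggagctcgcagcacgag
Ptx3: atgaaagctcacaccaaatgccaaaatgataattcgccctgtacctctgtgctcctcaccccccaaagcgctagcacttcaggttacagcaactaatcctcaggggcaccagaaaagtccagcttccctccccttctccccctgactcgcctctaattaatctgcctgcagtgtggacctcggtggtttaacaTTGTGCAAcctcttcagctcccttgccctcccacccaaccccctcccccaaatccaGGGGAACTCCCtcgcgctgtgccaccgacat
Steap4: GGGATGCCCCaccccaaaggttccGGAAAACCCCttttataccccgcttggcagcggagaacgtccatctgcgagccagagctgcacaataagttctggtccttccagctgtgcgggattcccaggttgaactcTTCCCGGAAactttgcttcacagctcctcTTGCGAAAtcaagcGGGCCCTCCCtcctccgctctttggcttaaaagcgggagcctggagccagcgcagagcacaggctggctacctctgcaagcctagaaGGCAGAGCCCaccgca
The regions are chr2:32387710-32387989 (minus strand) for *Lcn2*, chr7:46715647-46715926 (minus strand) for *Saa3*, chr3:66219637-66219916 (plus strand) for *Ptx3* and chr5:7960222-7960501 (plus strand) for *Steap4*.

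Each of the 4 windows held 1 match to the C/EBP motif, which 10.8% of the 32851 RefSeq windows of this length held. The match was TTGCTCAA in *Lcn2*, TTATGCAA in *Saa3*, TTGTGCAA in *Ptx3* and TTGCGAAA in *Steap4*. The NF-κB motif, present in 50.8% of windows, had 1 match in *Lcn2*, 2 that overlap at the *Ptx3* start, 4 in *Steap4* and 0 in *Saa3*. The STAT motif, present in 8.3% of windows, had 1 match, in *Steap4*, TTCCCGGAA. A hypoxia motif (ACGTG or GCGTG, 43.8% of windows) had 0 matches in the 4 windows. A match is a stretch of letters and not a shown binding site.

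**Figure D1:**
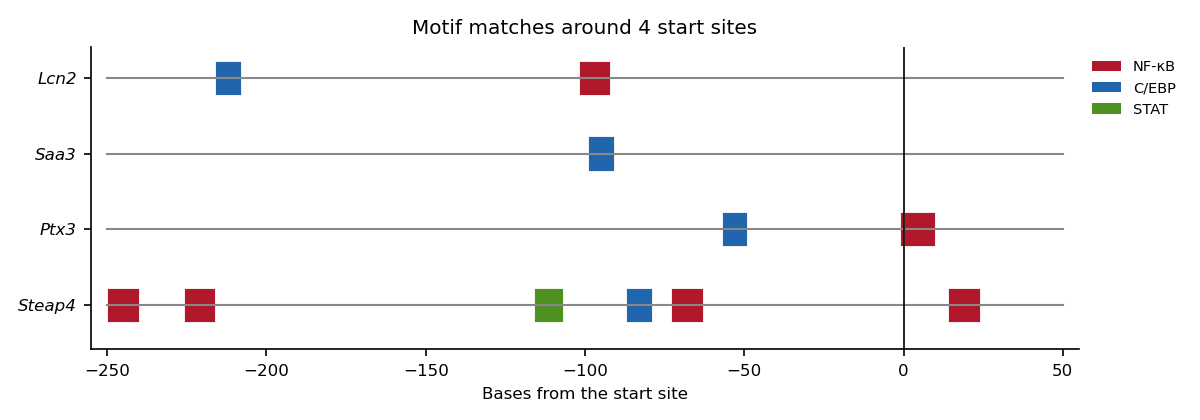
Matches to the NF-κB, C/EBP and STAT motifs in the windows of 4 genes, by distance in bases from the annotated start site at 0. Every window has 1 C/EBP match, *Steap4* has 4 NF-κB matches and *Saa3* has 0.

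A CF library held 104139670 to 119232309 estimated counts and a heart 23497027 to 23857313 counts. Levels are given as counts scaled to a library total of 1000000 (CPM). A read pair stood for about 6 estimated counts in the CF tables, and values up to 18 estimated counts (3 pairs) there, or 3 counts in hearts, were taken as the floor. Such floors cover counting error only. The knocked-down transcript, 4930523C07Rik, fell from 24.4 ± 2.21 CPM (SD, n = 3) in si-NC to 2.91 ± 0.487 with si-IAMP-1 and 1.81 ± 0.0541 with si-IAMP-2. Under IL-17 the means were 19.5, 2.50 and 1.71 CPM, and under TGF-β 21.1, 4.41 and 3.24 CPM. Of 10 known TGF-β target genes, 4 rose under TGF-β in si-NC cells and 0 fell, where 12.5% of all 21508 genes tested rose. *Acta2*, smooth muscle actin, was among the 4, at 3180 against 1090 CPM. This list was named after its values were seen, so it is no independent check of the label. The median sum of the list went from 18390 untreated to 23010 CPM in si-NC. It went from 22510 to 20620 with si-IAMP-1 and from 13670 to 23080 with si-IAMP-2. IL-17 targets are given below.

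In 5 CF libraries the summed level of 20 hepatocyte genes was over 10 times the median of their table. They were si-NC replicate 3 (128.5 CPM), si-NC+IL17 replicates 1 and 3 (160.7 and 107 CPM), si-IAMP-1+TGF replicate 2 (41.03 CPM) and si-IAMP-2+TGF replicate 3 (144.7 CPM). The other 22 CF libraries lay between 1.048 and 7.452 CPM. *Alb*, which encodes albumin, reached 1796 to 7739 estimated counts in the 5 libraries and at most 134 in the others. Without a stimulus or with IL-17, all 3 such libraries were si-NC libraries. Results for *Hp*, which hepatocytes make in quantity, are therefore given with and without them.

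The cells carried all 10 fibroblast markers, with sums from 15620 to 22570 CPM. Sums of 10 macrophage genes were 60.23 to 86.88 CPM in untreated and IL-17 cells and 133 to 177.5 under TGF-β, and those of 8 endothelial genes 50.77 to 75.37 and 114.2 to 128.8. Sums of 8 mesothelial genes were 68.59 to 162.4 CPM and 24.18 to 50.25 under TGF-β, and those of 8 cardiomyocyte genes 23.22 to 102.8 and 3.728 to 6.489. The neutrophil sum of 12 genes was 0.8801 to 6.734 CPM and 13.44 to 26.2 under TGF-β. Marker sums also moved with the siRNAs in untreated CFs. The neutrophil sum was 0.8801 to 1.359 CPM in si-NC, 3.68 to 4.292 with si-IAMP-1 and 4.081 to 5.331 with si-IAMP-2. The cardiomyocyte sum was 94.72 to 102.8, 40.97 to 46.08 and 27.4 to 33.07 CPM. Each sum was mostly 1 gene, *Mmp8* (means 0.932, 3.74 and 3.88 CPM) and *Tnnt2* (97.2, 42.9 and 29.4 CPM). *Myh6* had 0 in si-NC and si-IAMP-2. The part of these sums in the siRNA differences was not tested. The hearts had cardiomyocyte sums of 40900 to 46440 CPM. Fewer cells of a type and less RNA per cell cannot be told apart in such bulk samples. No label says that replicates came from separate cultures, so the p values measure the spread between these samples, which may be technical.

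**Figure D2:**
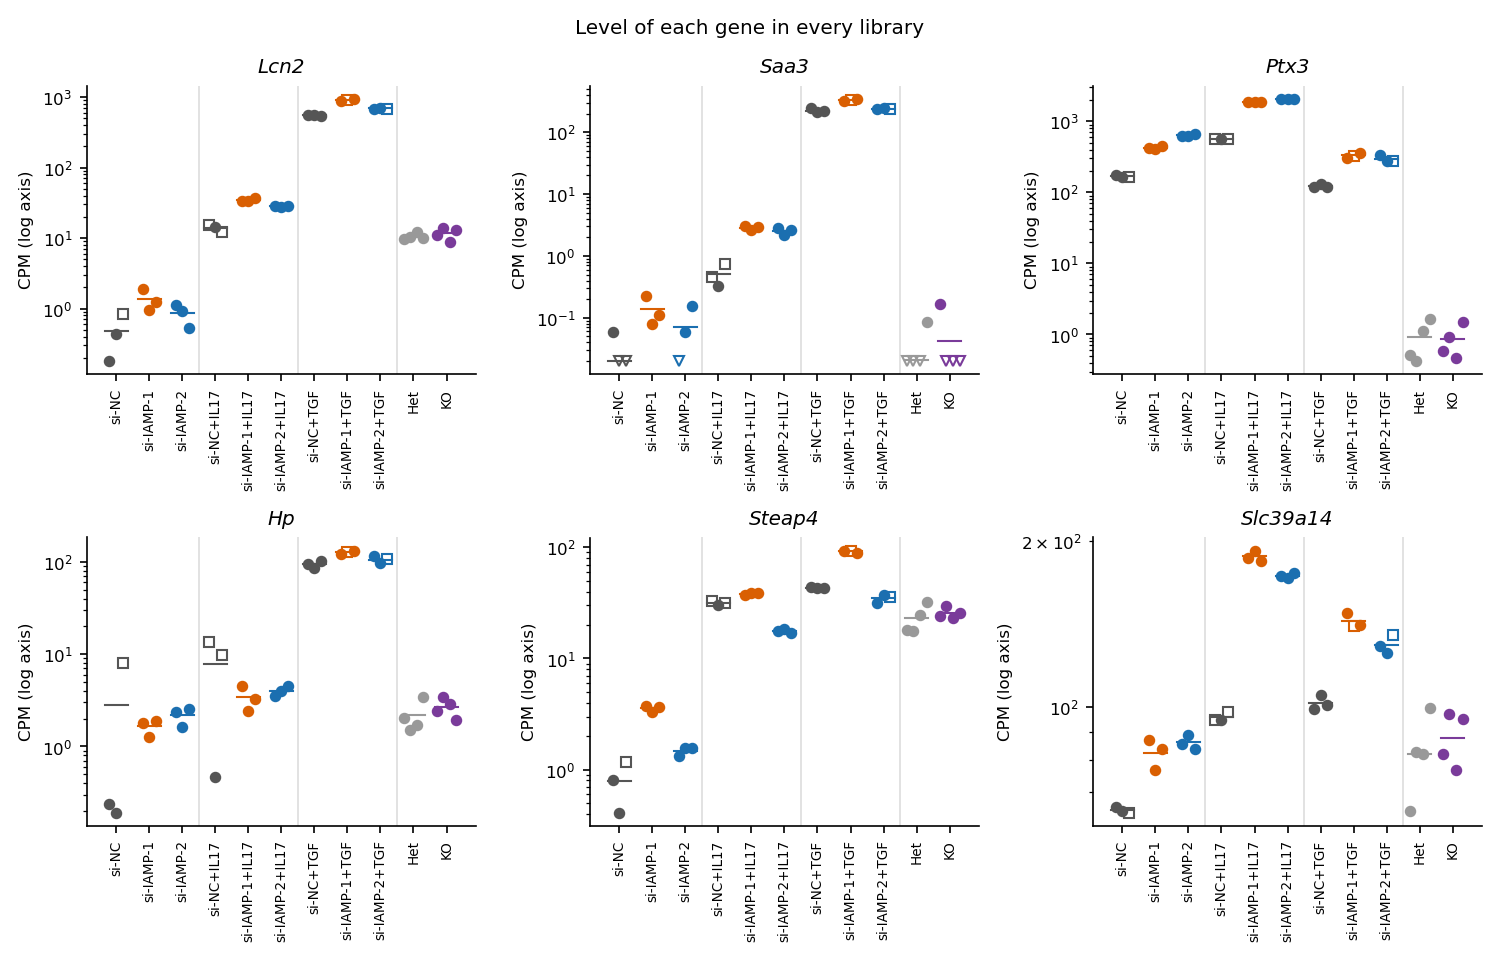
CPM of each gene in every library on a log axis, by group, with lines at group means. Open squares are the 5 libraries with liver transcripts and open triangles are values of 0, drawn below the lowest value. *Hp* in si-NC runs from 0.192 to 8.01 CPM, the highest being an open square, and *Lcn2* rises from under 2 CPM in untreated CFs to 540 CPM or more under TGF-β.

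*Lcn2*, which encodes lipocalin 2, a secreted protein that binds the iron carriers of bacteria, was low in untreated CFs. The si-NC replicates had 0.179, 0.436 and 0.847 CPM, those with si-IAMP-1 1.89, 0.953 and 1.23, and those with si-IAMP-2 1.13, 0.935 and 0.532. All si-IAMP-1 libraries lay above all si-NC libraries, and the si-IAMP-2 libraries overlapped with si-NC. The si-IAMP-1 difference was 2.99-fold (log2 fold change 1.58 ± 0.472 (SE), adjusted p = 0.0173), and that for si-IAMP-2 was 1.86-fold (0.90 ± 0.472, adjusted p = 0.143). Adjusted p values come from edgeR's quasi-likelihood test over all genes of a table, adjusted by Benjamini-Hochberg, and a call in untreated CFs needed a change of at least 1 on the log2 scale. The si-IAMP-1 call rested on single libraries, with an adjusted p of 0.0702 without si-NC replicate 2 and of 0.0654 without si-IAMP-1 replicate 1. Without si-NC replicate 3, the library with liver transcripts and the highest si-NC level of *Lcn2*, both differences passed, at 2.24 (adjusted p = 0.000637) and 1.56 (adjusted p = 0.00688).

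In the IL-17 table *Lcn2* was higher in all 3 siRNA groups. The si-NC replicates had 15.2, 14.3 and 12.1 CPM, the si-IAMP-1 replicates 33.7, 33.6 and 37.1, and the si-IAMP-2 replicates 28.7, 27.2 and 28.5. The knockdown groups lay wholly above si-NC, by 2.71-fold (1.44 ± 0.0716, adjusted p = 4.77e-11) and 2.14-fold (1.10 ± 0.0713, adjusted p = 6.63e-10). Under TGF-β the level was far higher, at 551, 559 and 540 CPM in si-NC, 877, 904 and 936 with si-IAMP-1, and 684, 710 and 678 with si-IAMP-2. The groups again did not overlap, and *Lcn2* rose 1.68-fold with si-IAMP-1 (0.75 ± 0.0327, adjusted p = 6.11e-11). The difference of 1.31-fold with si-IAMP-2 (0.39 ± 0.0326, adjusted p = 8.19e-08) was below the 1.5-fold threshold used for the siRNAs in stimulated cells.

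*Saa3* encodes a serum amyloid A that is made outside the liver, in macrophages, adipocytes and fibroblasts. In untreated CFs its estimated counts were 7, 0 and 0 in si-NC, 26, 9 and 13 with si-IAMP-1, and 0, 7 and 18 with si-IAMP-2. All but 1 of these 9 values were at or under the floor, and a difference was not detectable at this depth (adjusted p = 0.158 and 0.345). Without si-NC replicate 1, where the other si-NC libraries are at 0, the si-IAMP-1 difference passed (adjusted p = 0.0398).

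With IL-17 *Saa3* was above the floor in every library. The values were 0.46, 0.329 and 0.726 CPM in si-NC, 3.02, 2.58 and 2.92 with si-IAMP-1, and 2.8, 2.15 and 2.63 with si-IAMP-2. No knockdown library overlapped with si-NC, and the differences were 6.06-fold (2.60 ± 0.24, adjusted p = 1.11e-07) and 5.26-fold (2.39 ± 0.239, adjusted p = 1.67e-07), the largest of the 6 genes in IL-17 cells on all libraries. They were 9.32-fold and 8.15-fold without the libraries with liver transcripts, against 1 si-NC+IL17 library. Under TGF-β *Saa3* reached 245, 211 and 217 CPM in si-NC, 320, 334 and 343 with si-IAMP-1, and 234, 245 and 236 with si-IAMP-2. The si-IAMP-1 libraries lay above si-NC by 1.51-fold (0.60 ± 0.0467, adjusted p = 5.45e-08), whereas the si-IAMP-2 libraries overlapped with si-NC (0.15 ± 0.0466, adjusted p = 0.0212). The TGF-β call with si-IAMP-1 fell under the fold threshold without si-NC+TGF replicate 2 (0.56), si-NC+TGF replicate 3 (0.58) or si-IAMP-1+TGF replicate 3 (0.57).

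*Ptx3*, the long pentraxin, is a secreted pattern recognition protein of local inflammation. It was the 1 gene of the 6 called higher with both siRNAs in every CF table. *Slc39a14* was also higher with both in every table, but under the fold threshold untreated and with TGF-β. In untreated CFs *Ptx3* had 173, 165 and 165 CPM in si-NC, 414, 408 and 443 with si-IAMP-1, and 623, 617 and 668 with si-IAMP-2. The 3 groups did not overlap, with rises of 2.70-fold (1.43 ± 0.0404, adjusted p = 1.01e-13) and 3.98-fold (1.99 ± 0.041, adjusted p = 1.38e-15). With IL-17 the replicates had 563, 564 and 561 CPM in si-NC, 1870, 1860 and 1880 with si-IAMP-1, and 2030, 2050 and 2040 with si-IAMP-2. These were rises of 3.58-fold (1.84 ± 0.0238, adjusted p = 3.96e-18) and 3.82-fold (1.93 ± 0.0239, adjusted p = 3.77e-18). Under TGF-β *Ptx3* had 117, 129 and 120 CPM in si-NC, 308, 328 and 357 with si-IAMP-1, and 340, 274 and 273 with si-IAMP-2. Both knockdown groups lay above si-NC and overlapped with each other, at 2.76-fold (1.46 ± 0.0979, adjusted p = 2.49e-05) and 2.52-fold (1.33 ± 0.0976, adjusted p = 2.75e-05).

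*Hp* encodes haptoglobin, which binds hemoglobin set free from red cells and so keeps its iron from use. In untreated CFs the si-NC replicates had 0.238, 0.192 and 8.01 CPM, those with si-IAMP-1 1.8, 1.28 and 1.9, and those with si-IAMP-2 2.35, 1.62 and 2.53. The si-NC replicate 3 is the library with liver transcripts, and replicates 1 and 2 lay below all 6 knockdown libraries. On all libraries no difference passed (-0.66 ± 1.32, adjusted p = 0.768, and -0.31 ± 1.31, adjusted p = 0.887). Without that library *Hp* rose 8.21-fold with si-IAMP-1 (3.04 ± 0.303, adjusted p = 7.01e-07) and 10.4-fold with si-IAMP-2 (3.38 ± 0.306, adjusted p = 1.06e-07), with 2 si-NC libraries left.

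With IL-17 the pattern was the same. The si-NC replicates had 13.4, 0.467 and 9.83 CPM, those with si-IAMP-1 4.54, 2.43 and 3.26, and those with si-IAMP-2 3.55, 3.98 and 4.56. The si-NC replicates 1 and 3 hold liver transcripts and were the highest of the 9, and replicate 2 was the lowest. On all libraries the differences were -1.10 ± 0.958 (adjusted p = 0.443) and -0.89 ± 0.95 (adjusted p = 0.508). Without the libraries with liver transcripts they were 2.98 ± 0.35 (7.88-fold, adjusted p = 7.4e-06) and 3.20 ± 0.353 (9.16-fold, adjusted p = 2.02e-06). That fit has 1 si-NC+IL17 library, which is assumed to vary like the other groups. Without si-NC+IL17 replicate 2, where only libraries with liver transcripts stand for si-NC, *Hp* was called lower with both siRNAs (-1.65, adjusted p = 0.000264, and -1.45, adjusted p = 0.000447).

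In the 3 si-NC libraries with liver transcripts, *Hp* was 18.9%, 24.3% and 27.4% of *Alb*. The 12 untreated and IL-17 knockdown libraries had 148 to 532 estimated counts of *Hp* with 0 to 134 of *Alb*, and 10 of them had *Alb* at or under the floor. Under TGF-β *Hp* was high whatever the *Alb* level, with 94.3, 86.4 and 101 CPM in si-NC, 122, 126 and 132 with si-IAMP-1, and 115, 96.2 and 106 with si-IAMP-2. There the si-IAMP-1 libraries lay above all si-NC libraries (0.46 ± 0.0715, adjusted p = 0.000761) and the si-IAMP-2 libraries overlapped with si-NC (0.23 ± 0.0715, adjusted p = 0.0312), both below the fold threshold.

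**Figure D3:**
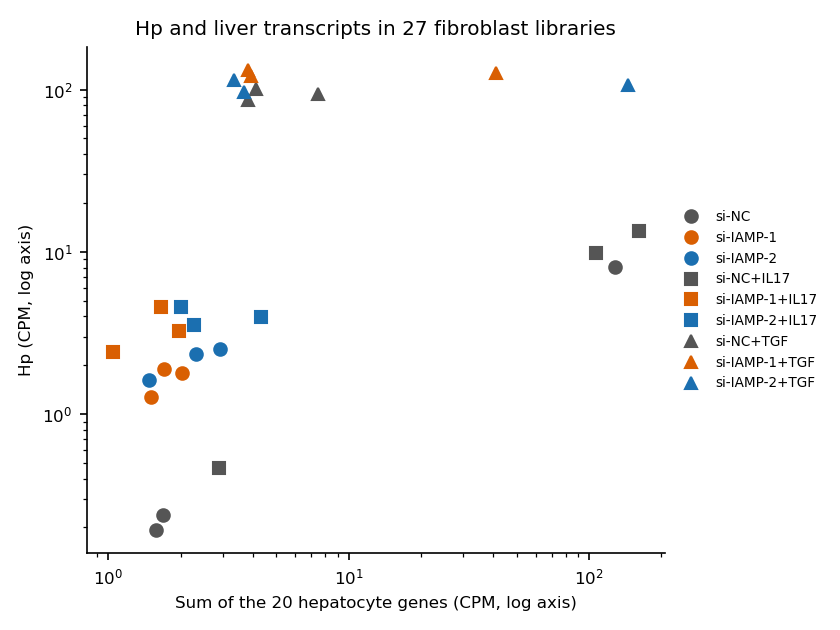
*Hp* against the summed level of 20 hepatocyte genes in the 27 CF libraries, in CPM on log axes, coloured by siRNA and shaped by cytokine. The 3 si-NC libraries at 107 CPM or more of hepatocyte genes have 8.01 to 13.4 CPM of *Hp*, the 3 other si-NC libraries without TGF-β 0.192 to 0.467 CPM, and all TGF-β libraries 86.4 CPM or more.

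*Steap4* encodes a membrane reductase that converts iron and copper to the forms that transporters carry. Of the 6 genes, it was the 1 called between the 2 siRNAs. In untreated CFs it had 0.8, 0.41 and 1.17 CPM in si-NC, 3.71, 3.33 and 3.69 with si-IAMP-1, and 1.33, 1.55 and 1.56 with si-IAMP-2. The 3 groups did not overlap, si-IAMP-1 being 4.83-fold above si-NC (2.27 ± 0.267, adjusted p = 2.88e-06) and si-IAMP-2 1.95-fold (0.96 ± 0.265, adjusted p = 0.00572, under the threshold of 1). The si-IAMP-2 difference passed that threshold without si-NC replicate 3 (1.35, adjusted p = 0.000289) or si-IAMP-2 replicate 1 (1.04, adjusted p = 0.0105).

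With IL-17 *Steap4* moved apart in both directions. The si-NC replicates had 33, 30.3 and 31.7 CPM, those with si-IAMP-1 36.9, 39 and 38.8, and those with si-IAMP-2 17.6, 18.6 and 17.1. It fell with si-IAMP-2 to 0.591 times the si-NC level (-0.76 ± 0.053, adjusted p = 1.69e-09), and si-IAMP-1 was 1.30-fold above si-NC (0.38 ± 0.0521, adjusted p = 1.17e-05), below the fold threshold. Under TGF-β the values were 44.1, 42.7 and 42.7 CPM in si-NC, 93.1, 93.4 and 89.6 with si-IAMP-1, and 31.6, 37.2 and 35.8 with si-IAMP-2. *Steap4* rose 2.17-fold with si-IAMP-1 (1.12 ± 0.0539, adjusted p = 1.69e-10), and all si-IAMP-2 libraries lay below si-NC by a difference under the threshold (-0.25 ± 0.0539, adjusted p = 0.00178).

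*Slc39a14* encodes ZIP14, which imports zinc and iron that is not bound to transferrin. Untreated CFs had 65.8, 64.7 and 64.3 CPM in si-NC, 87.1, 77 and 83.8 with si-IAMP-1, and 85.7, 89 and 84 with si-IAMP-2. Both knockdown groups lay above si-NC with small differences, 1.36-fold (0.45 ± 0.0447, adjusted p = 4.32e-07) and 1.39-fold (0.48 ± 0.0446, adjusted p = 1.07e-07), under the threshold of 1. With IL-17 the values were 94.7, 94.6 and 97.8 CPM in si-NC, 186, 192 and 184 with si-IAMP-1, and 173, 171 and 175 with si-IAMP-2. *Slc39a14* rose there 2.11-fold (1.08 ± 0.0293, adjusted p = 2.57e-14) and 1.90-fold (0.93 ± 0.0292, adjusted p = 5.1e-14). Under TGF-β it had 99.2, 105 and 101 CPM in si-NC, 148, 140 and 141 with si-IAMP-1, and 129, 125 and 135 with si-IAMP-2, and the differences of 0.52 ± 0.0394 (adjusted p = 3.43e-08) and 0.41 ± 0.0393 (adjusted p = 3.65e-07) were below the fold threshold.

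**Figure D4:**
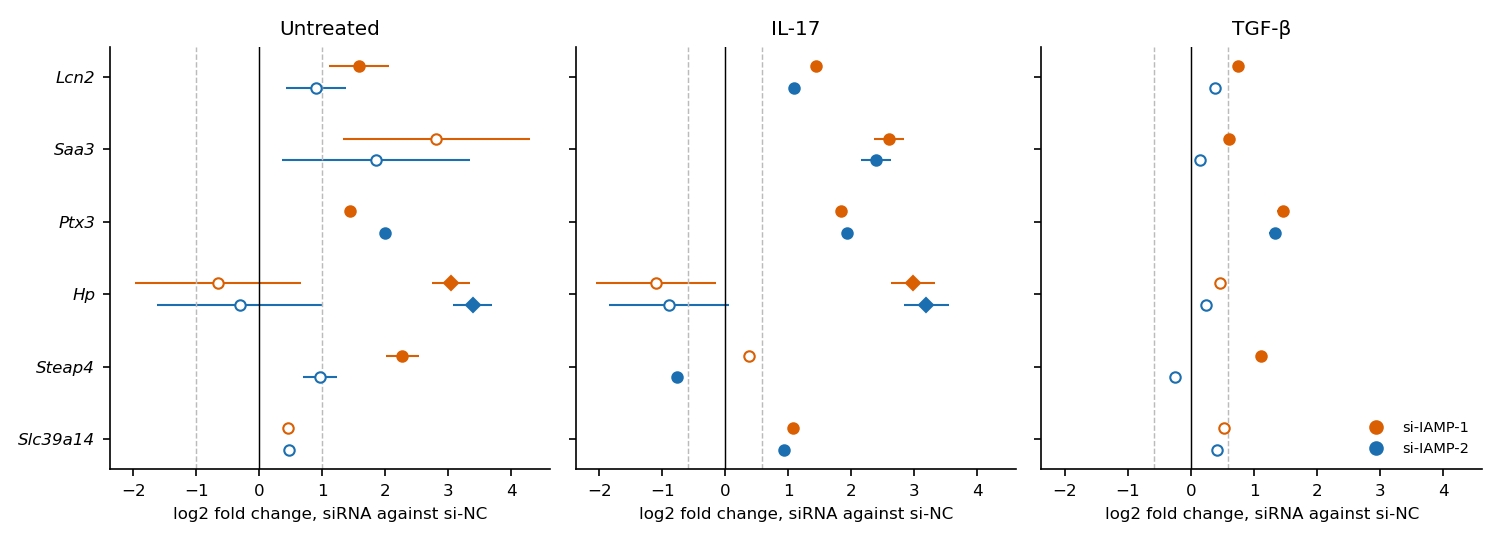
Log2 fold change of each siRNA against si-NC with its SE (bars), in untreated, IL-17 and TGF-β cells. Filled symbols passed the test with its fold threshold (dashed lines), and diamonds give *Hp* without the libraries with liver transcripts. *Ptx3* is filled in all 6 positions, and *Steap4* lies left of 0 with si-IAMP-2 under IL-17 and TGF-β.

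Counted over the 6 genes, *Lcn2*, *Ptx3* and *Steap4* (3 genes) rose with si-IAMP-1 in untreated CFs, where 2.15% of the 19669 genes tested rose, and 1 (*Ptx3*) with si-IAMP-2, where 3.42% did. The 2 comparisons share their si-NC libraries, as in each table. Without si-NC replicate 3, 4 genes rose with si-IAMP-2 (*Lcn2*, *Ptx3*, *Hp* and *Steap4*, against 3.33% of all genes), and the same 4 with si-IAMP-1 (against 1.96%). With IL-17, *Lcn2*, *Saa3*, *Ptx3* and *Slc39a14* rose with si-IAMP-1 (4 genes, against 5.58% of 19906 genes) and with si-IAMP-2 (4 genes, against 8.06%), while 1 gene, *Steap4*, fell with si-IAMP-2 (against 13.7%). Without the libraries with liver transcripts, *Hp* joined them with both siRNAs, against 4.79% and 7.12% of all genes. Under TGF-β, *Lcn2*, *Saa3*, *Ptx3* and *Steap4* rose with si-IAMP-1 (4 genes, against 2.45% of 19891 genes) and *Ptx3* alone of the 6 with si-IAMP-2 (1 gene, against 2.07%).

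Libraries that do not overlap were common in these tables. With si-IAMP-1 every library lay above every si-NC library for 5 of the 6 genes untreated, 5 with IL-17 and 6 with TGF-β, against 17.3%, 17.5% and 16% of all genes tested. The untreated 5 include *Saa3*, whose si-NC values were all under the floor. With si-IAMP-2 the counts were 3, 4 and 3, against 23.8%, 23.9% and 15%. The median log2 fold change of the 6 genes with si-IAMP-1 was 1.51 untreated, 1.26 with IL-17 and 0.67 with TGF-β, and with si-IAMP-2 0.93, 1.01 and 0.31, while the median over all genes tested lay between -0.02 and 0.01. These counts and medians use all libraries, those with liver transcripts included, also for *Hp*.

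A direct test between the siRNAs was made too. *Steap4* was lower with si-IAMP-2 than with si-IAMP-1 in all 3 tables, at 0.404 times the level untreated (-1.31 ± 0.256, adjusted p = 0.000415), 0.454 times with IL-17 (-1.14 ± 0.0532, adjusted p = 1.52e-11) and 0.388 times with TGF-β (-1.37 ± 0.0544, adjusted p = 7.35e-11). No library of the 2 groups overlapped. It was the 1 gene of the 6 called in each of these comparisons, in which 4.41%, 9.62% and 3.12% of all genes were lower. Other genes also differed between the siRNAs, under the fold thresholds. *Ptx3* was 1.47-fold higher with si-IAMP-2 untreated (0.56 ± 0.0395, adjusted p = 4.32e-09) and *Saa3* was 0.734 times as high under TGF-β (-0.45 ± 0.0466, adjusted p = 2.08e-06). *Lcn2* was lower with si-IAMP-2 both with IL-17 (-0.34 ± 0.0695, adjusted p = 0.000567) and with TGF-β (-0.36 ± 0.0326, adjusted p = 4.72e-07).

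The cytokine tables were then set against the untreated table in fits of 18 libraries, and a stimulus and its table cannot be told apart in them. With IL-17, *Lcn2*, *Saa3*, *Ptx3* and *Steap4* rose in si-NC (4 genes, against 1.09% of 21219 genes tested), and these and *Slc39a14* with si-IAMP-1 (5 genes, against 1.23%) and si-IAMP-2 (5 genes, against 1.22%). *Steap4* rose most by fitted fold in si-NC, 39.7-fold (5.31 ± 0.2, adjusted p = 2.93e-11), and *Lcn2* 28.3-fold (4.82 ± 0.361, adjusted p = 5.06e-07), or 46.4-fold without the libraries with liver transcripts. *Ptx3* rose 3.35-fold (1.75 ± 0.0341, adjusted p = 8.01e-23), and *Slc39a14* was 1.47-fold higher (0.56 ± 0.038, adjusted p = 2.21e-11), under the threshold of 1. *Saa3* was at least 3.28-fold higher against a floor of 18 estimated counts per library (adjusted p = 0.00304), a call lost without the libraries with liver transcripts (adjusted p = 0.144). *Slc39a14* stayed just past the threshold with si-IAMP-2 (1.02 ± 0.0379) and was just under it without si-IAMP-2 replicate 3 (0.9985).

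*Hp* did not pass for IL-17 in any siRNA group on all libraries (adjusted p = 0.539, 0.705 and 0.769). In the 2 knockdown groups, which held no library with many liver transcripts, every IL-17 library lay above every untreated one. Without the libraries with liver transcripts the IL-17 differences were 1.11 ± 0.395 in si-NC (adjusted p = 0.112, 1 library against 2), 1.05 ± 0.215 with si-IAMP-1 (adjusted p = 0.000824, past the threshold) and 0.91 ± 0.212 with si-IAMP-2 (adjusted p = 0.00355, under it). Without si-NC replicate 3 alone the si-NC difference was 5.18 (adjusted p = 0.0105), with the si-NC+IL17 libraries with liver transcripts still in it.

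Under TGF-β, *Lcn2*, *Saa3*, *Hp* and *Steap4* rose in all 3 siRNA groups (4 genes each, against 12.5%, 12.8% and 13% of 21508 genes tested). *Lcn2* was 1120-fold higher in si-NC (10.14 ± 0.268, adjusted p = 5.55e-13), or 1770-fold without the libraries with liver transcripts, and *Steap4* 54.4-fold (5.76 ± 0.201, adjusted p = 2.44e-12). *Saa3* was at least 1460-fold higher than a floor of 18 estimated counts per library in si-NC and at least 1550-fold with si-IAMP-2. *Hp* rose 33.3-fold in si-NC on all libraries (5.06 ± 0.775, adjusted p = 7.22e-05) and 428-fold without the libraries with liver transcripts (8.74 ± 0.277, adjusted p = 2.16e-10). *Slc39a14* was 1.57-fold higher (0.65 ± 0.0448, adjusted p = 5.06e-12), under the threshold.

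*Ptx3* went the other way. It was lower under TGF-β in every library of every siRNA group, and the fall passed with si-IAMP-2 (-1.13 ± 0.0767, adjusted p = 2.51e-09, 1 gene, against 8.07% of all genes that were lower). In si-NC the difference was -0.45 ± 0.0767 (adjusted p = 9.52e-05) and with si-IAMP-1 -0.42 ± 0.0759 (adjusted p = 0.00016), both under the threshold. Neutrophils, which can store lipocalin 2, pentraxin 3 and haptoglobin, were looked for in the TGF-β libraries. Of 6 neutrophil genes tested, 3 were higher under TGF-β in si-NC and 0 lower, these being *S100a8*, *Camp* and *Mmp8*. *S100a8*, a calcium-binding protein of neutrophils, had 35 to 209 estimated counts in the TGF-β libraries (adjusted p = 3.68e-06, with 0 in untreated si-NC), and *S100a9* had 0 to 18, *Ly6g* 0 to 5, *Elane* 0 to 5 and *Mpo* 4 to 43 estimated counts there, beside 57752 to 99976 of *Lcn2*. *Retnlg* had 0. *Camp*, which encodes an antimicrobial peptide of neutrophil granules, had 331 to 582 estimated counts there, and *Mmp8* 1010 to 2115, the largest part of the neutrophil sum. The part of these transcripts in the differences was not tested. The part of the macrophage, endothelial, mesothelial and cardiomyocyte marker shifts of that table in these differences was not tested.

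**Figure D5:**
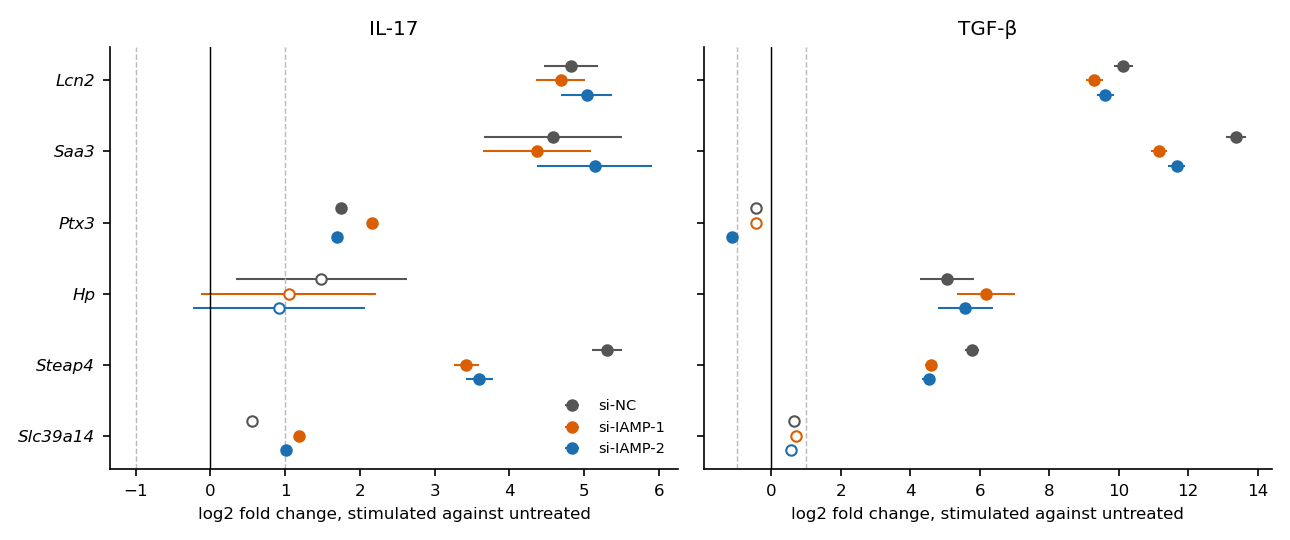
Log2 fold change of IL-17 or TGF-β against untreated CFs with its SE (bars) in each siRNA group, where filled symbols passed the test at an absolute change of 1 (dashed lines). *Ptx3* lies right of 0 with IL-17 and left of 0 with TGF-β, and *Lcn2* lies between 9.30 and 10.14 with TGF-β. *Saa3* folds against groups at the floor are fitted values and no bounds.

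Whether the siRNA effect itself changed with a cytokine was tested in the same fits. A difference between tables that is the same in every siRNA group cancels there. A difference between tables that alters the siRNA effect does not cancel, and cannot be told apart from the cytokine. *Steap4* was the 1 gene of the 6 whose effect changed in each of the 4 tests. With IL-17 its si-IAMP-1 effect was lower by a log2 difference of -1.89 ± 0.254 (adjusted p = 0.000598, against 0.099% of all genes lower) and its si-IAMP-2 effect by -1.71 ± 0.266 (adjusted p = 0.00196, against 0.0895%). With TGF-β the differences were -1.16 ± 0.256 (adjusted p = 0.00493, against 0.935%) and -1.23 ± 0.27 (adjusted p = 0.00283, against 2.21%), and both dropped under the threshold of 1 without si-NC replicate 2 (-0.84 and -0.91). The tests for the 2 siRNAs share the si-NC libraries. The si-IAMP-1 effect on *Slc39a14* was larger with IL-17 by 0.63 ± 0.0534 (adjusted p = 2.96e-08) and that on *Ptx3* by 0.41 ± 0.0468 (adjusted p = 3.44e-06), under the threshold. For si-IAMP-2 these changes were 0.46 ± 0.0534 (adjusted p = 3.18e-06) and -0.05 ± 0.0468 (adjusted p = 0.86). With TGF-β the *Ptx3* effect changed by -0.68 ± 0.108 for si-IAMP-2 (adjusted p = 0.000157, under the threshold) and by 0.03 ± 0.108 for si-IAMP-1 (adjusted p = 0.934). Without the libraries with liver transcripts, the *Hp* effects of both siRNAs were smaller with TGF-β than without it, by -2.57 (adjusted p = 0.00109) and -3.15 (adjusted p = 0.000103). Without si-NC replicate 3 the si-IAMP-1 effect on *Lcn2* was also smaller with TGF-β (-1.49, adjusted p = 0.0362), a call that was lost without all libraries with liver transcripts (-1.49, adjusted p = 0.0764). The fall of 4930523C07Rik itself was smaller under TGF-β. It changed by 0.73 ± 0.155 for si-IAMP-1 (adjusted p = 0.00113, under the threshold) and by 1.03 ± 0.159 for si-IAMP-2 (adjusted p = 1.7e-05). With IL-17 the changes were 0.12 (adjusted p = 0.876) and 0.26 (adjusted p = 0.655). The part of this weaker knockdown in the TGF-β changes above was not tested.

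In hearts, all 6 genes overlapped between Het and KO. *Lcn2* had 9.62, 10.3, 12.1 and 10 CPM in Het and 11.2, 14.1, 8.77 and 12.9 in KO (0.18 ± 0.152), and *Hp* 2.03, 1.51, 1.72 and 3.46 in Het and 2.44, 3.42, 2.89 and 1.93 in KO (0.31 ± 0.243). *Steap4* was 23.2 ± 6.85 CPM (SD, n = 4) in Het and 25.7 ± 2.94 in KO, *Slc39a14* 82.3 ± 14.2 and 87.8 ± 9.76, and *Ptx3* 0.927 ± 0.574 and 0.874 ± 0.466. *Saa3* had 0, 0, 0 and 2 counts in Het and 4, 0, 0 and 0 in KO, and was not tested. Of the 5 genes tested, 0 were called by edgeR (every adjusted p was 1), 0 by DESeq2, and 0 had an unadjusted p under 0.05, and of all 16675 genes edgeR called 0 (0%) and 601 had an unadjusted p under 0.05. DESeq2 called 3 of 29670 genes. Low counts limit *Ptx3* and *Saa3* in hearts, where *Ptx3* had at most 39.

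Levels per kilobase of exon allow the genes to be set beside each other. The length was the union of exons over all annotated transcripts, and the orders depend on it. It was 10550 bases over 13 transcripts for *Slc39a14* and 3155 bases over 1 for *Steap4*. In untreated si-NC cells *Ptx3* stood highest at 62.4 CPM per kb, followed by *Slc39a14* at 6.16 and *Hp* at 1.75, which was 0.134 without the library with liver transcripts and then below *Steap4*, and *Steap4* (0.251) and *Lcn2* (0.186) lay below 1. With TGF-β the order in si-NC was *Lcn2* (210 CPM per kb), *Saa3* (85.9), *Hp* (58.4), *Ptx3* (45.6), *Steap4* (13.7) and *Slc39a14* (9.63). In Het hearts it was *Slc39a14* (7.8), *Steap4* (7.35), *Lcn2* (4), *Hp* (1.36) and *Ptx3* (0.346), where the first 2 did not differ beyond their SDs of 1.35 and 2.17.

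Over the 9 CF groups, mean levels were compared on a log2(CPM + 1) scale. *Saa3* and *Hp* had a Pearson r of 0.988 over the 9 groups, *Lcn2* and *Saa3* 0.957 and *Lcn2* and *Hp* 0.948, and *Ptx3* had -0.198 with *Lcn2* and -0.455 with *Hp*. *Steap4* had 0.891 with *Lcn2* and 0.0994 with *Ptx3*, and *Slc39a14* had 0.724 with *Steap4*, 0.657 with *Ptx3* and 0.323 with *Hp*. When libraries with liver transcripts were left out, *Hp* had 0.988 with *Saa3*, 0.925 with *Lcn2* and -0.373 with *Ptx3*. The 9 points share libraries and the step to the TGF-β table, and these values are descriptions. Among 11550 other genes with at least 5 CPM in some group, the genes most like *Lcn2* were *Kcnn3* (r = 0.9955) and *Cxcl16* (0.9884), and those most like *Saa3* were *Chil1* (0.9952) and *Slc2a6* (0.9935). For *Hp* they were *Ubb-ps* (0.9932) and *Tnfsf13b* (0.9928), and without the libraries with liver transcripts *Nr1h2* (0.9965) and *Bmp6* (0.9964). The genes most like *Ptx3* were *Gm6093* (0.9833) and *Ets2* (0.9767). *Steap4* was most like *Nfkbia* (0.9845) and *Icam1* (0.9843), and *Slc39a14* most like the chemokine gene *Cxcl3* (0.9633) and *Cyp7b1* (0.9604). Without the libraries with liver transcripts, *Ap5z1* (0.9918) replaced *Slc2a6* for *Saa3*, and *Tti2* (0.9591) replaced *Cyp7b1* for *Slc39a14*. *Ets2* (0.9738) then came before *Gm6093* (0.9677) for *Ptx3*, and *Lcn2* and *Steap4* kept their genes.

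Other acute-phase genes gave a mixed picture. The list counts here and below are to be read against the shares of all genes that rose, given above for the same comparisons. For counts of lower genes, the share of all genes is given only for si-IAMP-2 with IL-17 (13.7%). The other counts of lower genes have no such share beside them and are descriptions only. Of a list of 23, 12 were tested in untreated CFs, and 4 rose with si-IAMP-1 and 5 with si-IAMP-2, with 0 lower. *Serpina3n*, a protease inhibitor, had 233 CPM in si-NC, 627 with si-IAMP-1 and 920 with si-IAMP-2 (log2 fold changes 1.53 and 2.05, adjusted p = 7.19e-08 and 4e-09), and *Mt2*, a metallothionein, 33.7, 71.4 and 101 CPM (1.18 and 1.65, adjusted p = 1.51e-11 and 9.37e-14). With IL-17, 14 were tested, of which 5 rose and 4 fell with si-IAMP-1 and 6 rose and 3 fell with si-IAMP-2, and with TGF-β 3 of 17 rose with each siRNA and 0 fell. *Mt2* was called higher with both siRNAs in these tables too (1.50 and 1.48 with IL-17, adjusted p = 5.26e-10 and 2.69e-10, and 1.02 and 1.29 with TGF-β, adjusted p = 1.04e-06 and 9.36e-08), as was *Mt1* under TGF-β (0.66 and 0.91, adjusted p = 1.74e-08 and 2.09e-10). *Saa4*, the remaining TGF-β call, had 0 estimated counts in si-NC+TGF, 8 to 15 with si-IAMP-1 and 7 to 24 with si-IAMP-2, around the floor of 18, and of these groups the knockdown ones each hold a library with liver transcripts, whose part was not tested. The IL-17 table was higher than the untreated one in si-NC for 2 of 21, *Mt2* (1.10, adjusted p = 2.54e-11) and *Serpina3m* (1.35, adjusted p = 0.0204), and lower for 0. Under TGF-β, 5 of 18 were higher and 2 lower, with *Lbp*, which binds bacterial lipopolysaccharide, at 58.6 against 10.6 CPM (2.47, adjusted p = 3.98e-15) and *Serpina3m* at 0.0254 against 0.336 CPM (-3.68, adjusted p = 0.00548). *Itih3* (-4.58 and -4.15, adjusted p = 0.00068 and 0.000824) and *Hpx* (-4.14 and -3.78, adjusted p = 0.0287 and 0.0305), both made by the liver, were lower with the siRNAs than in si-NC within the IL-17 table, where 2 of the 3 si-NC libraries held liver transcripts. The liver acute-phase genes *Crp*, *Saa1*, *Saa2* and *Orm1* had at most 11 estimated counts in untreated and IL-17 knockdown libraries. They were named after their values were seen and do not stand for the list. In the same groups *Hpx* had means of 0.461 and 0.388 CPM untreated and 0.554 and 0.73 with IL-17. For *Itih3* these means were 0.049, 0.0623, 0.0348 and 0.0482 CPM. For the hepatocyte list itself, 0 of 7 genes rose and 1 (*Apoh*) fell with si-IAMP-1 in untreated CFs, and 6 of 13 were lower with each siRNA than in si-NC within the IL-17 table.

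Among 20 genes of cytokines, receptors and factors that induce acute-phase genes, 17 were tested in untreated CFs, and 2 rose with si-IAMP-1 and 7 with si-IAMP-2, with 0 lower. *Il6*, the main cytokine of the acute-phase response, had 20.2, 47.3 and 131 CPM in the 3 groups (1.33 and 2.77, adjusted p = 4.88e-13 and 9.12e-17), and *Cebpb*, a C/EBP factor, 39.7, 84.7 and 116 CPM (1.19 and 1.62, adjusted p = 2.36e-11 and 1.9e-13). With IL-17, 3 of 18 rose and 1 fell with si-IAMP-1, and 5 rose with si-IAMP-2, *Il6* again being among them with both (0.99 and 1.57, adjusted p = 4.26e-12 and 6.24e-15) beside *Il17ra*, the IL-17 receptor (0.62 and 0.84, adjusted p = 2.92e-10 and 2.45e-12). Under TGF-β 3 of 20 rose with si-IAMP-1 and 1 with si-IAMP-2, and 0 fell, *Il6* being the gene called with both (0.80 and 0.93, adjusted p = 8.99e-10 and 8.32e-11). The IL-17 table was higher for 9 of 18 in si-NC, among them *Il6* (3.75, adjusted p = 3.83e-27), *Zc3h12a*, a nuclease of inflammatory transcripts (3.86, adjusted p = 5.46e-26), and *Nfkbiz*, a cofactor of NF-κB (2.58, adjusted p = 4.53e-27). Under TGF-β, 7 of 20 were higher in si-NC, among them *Tnf*, with 0.06 CPM untreated and 2.68 CPM under TGF-β (5.47, adjusted p = 0.000109), *Osm*, which encodes oncostatin M (3.97, adjusted p = 0.00924), and *Zc3h12a* (3.71, adjusted p = 8.1e-25).

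Of 33 genes of iron uptake, storage and export, 31 were tested with the siRNAs and most were not called. With si-IAMP-1, 2 rose untreated, 6 rose and 1 fell with IL-17, and 6 rose and 2 fell with TGF-β. With si-IAMP-2, 1 rose and 1 fell untreated, 7 rose and 3 fell with IL-17, and 6 rose and 2 fell with TGF-β. Of all genes, 8.06% rose and 13.7% fell with si-IAMP-2 under IL-17. *Hmox1*, heme oxygenase 1, which frees iron from heme, rose with both siRNAs in every table, from 248 to 1420 and 493 CPM in untreated CFs (2.62 and 1.06, adjusted p = 3.5e-18 and 4.32e-14). With IL-17 *Tfrc*, the transferrin receptor (0.95 and 0.75, adjusted p = 3.71e-13 and 2.74e-12), and *Ftl1*, the ferritin light chain (0.75 and 0.71, adjusted p = 5.2e-11 and 4.33e-11), rose with both. Under TGF-β *Slc40a1*, the iron exporter ferroportin, rose with both (1.14 and 0.99, adjusted p = 1.11e-07 and 3.79e-07) from a si-NC level that was itself lower than untreated (-2.79, adjusted p = 4.92e-20). So did *Blvrb*, a biliverdin reductase (0.83 and 1.17, adjusted p = 3.96e-10 and 4.27e-12). The IL-17 table was higher for 1 of 32 in si-NC, *Slc11a2*, which imports divalent metals (1.54, adjusted p = 1.36e-20). The TGF-β table was higher for 9 of 32, among them *Tfr2*, a transferrin receptor (4.65, adjusted p = 7.14e-05), and *Slc11a1*, a metal transporter of macrophages (3.06, adjusted p = 2.03e-12), and lower for 4. In hearts 0 of 11 acute-phase, 0 of 15 inducer and 0 of 28 iron genes tested were called by edgeR.

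Of the marker lists, 2 of 4 tested neutrophil genes rose with each siRNA in untreated CFs and 3 of 4 with IL-17, *Mmp8* and *S100a8* among them in both. *Mmp8*, a collagenase, had 0.932, 3.74 and 3.88 CPM in the 3 untreated groups, and *S100a8* 0, 0.109 and 0.399 CPM. Of 10 macrophage genes, 5 were higher and 2 lower under TGF-β than untreated in si-NC, and 0 with IL-17. Of all genes tested, 12.5% were higher there under TGF-β and 1.09% with IL-17. Sums of the adipocyte list were 263 to 493.2 CPM in untreated and IL-17 cells and 160.4 to 275.9 under TGF-β, of which *Lpl* was the main part, while *Adipoq*, an adipocyte hormone, had at most 12 estimated counts in any CF library.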

How the data were processed

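RNA-Seq of 27 mouse CF libraries and 8 hearts was read from 4 deposited tables. The authors trimmed reads with Cutadapt 3.7, checked them with FastQC 0.11.9, used HISAT2 2.2.1 for alignment (GRCm38) and StringTie 2.1.4 for quantification. The CF tables hold whole numbers that the authors deposited as raw counts and that were read as estimated counts from coverage, since 6 was the most frequent value of genes seen in 1 library. The heart table holds deposited counts. Annotation release and strand setting are not given in the sources used here.

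CPM used library totals. Tests used edgeR 4.0.16 (R 4.3.3) with TMM, filterByExpr and robust quasi-likelihood fits over all genes, adjusted by Benjamini-Hochberg, 1 fit per table, and fits of 2 CF tables for stimuli and interactions. A gene was called where its adjusted p did not exceed 0.05 and it changed at least 2-fold (1 on the log2 scale), or 1.5-fold for siRNAs under IL-17 or TGF-β. SEs are the log2 fold change over the square root of F. The pipeline was tested on simulated data.

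The 6 genes and all lists were chosen with earlier results of these data known. Named besides the 6 genes are, per list, up to 3 genes with the largest change called with both siRNAs or by a stimulus in si-NC, the 2 most similar genes of each of the 6, and 4930523C07Rik. Markers at the floor, and the TGF-β target list, were named after their values were seen. Alternatives were DESeq2 1.42.0, RLE factors, no low-count filter, a minimum of 10 in each library, the other fold threshold, only the compared groups or all 27 CF libraries in 1 fit, the replicate number as a block, division by 6, leaving out libraries with liver transcripts (for correlations and levels per kb, an alternative chosen after seeing the data), and leaving out each library.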

Additional observations from a re-analysis of the deposited data

Results flagged for a closer look

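*Saa3* had 1 heart in each genotype apart from the other 3, with 0.0844 CPM (2 counts) in a Het heart and 0.168 CPM (4 counts) in a KO heart, the others being at 0. With 3 values at 0 any count above 0 is set apart by this gap measure, so the usual rate by chance of 1 in 20 groups does not apply, and the values are at or next to the floor of 3 counts.

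The siRNA effect on *Steap4* differed between tables by a tested interaction. The difference of log2 fold changes was -1.89 for si-IAMP-1 and -1.71 for si-IAMP-2 with IL-17, and -1.16 and -1.23 with TGF-β, each against untreated CFs. All 4 share the 3 untreated si-NC libraries, which had 47 to 139 estimated counts of *Steap4*.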

How the results depend on the processing

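The counts of genes called kept within 1.5 times under DESeq2, RLE factors, both other filters, only the compared groups, all 27 CF libraries in 1 fit and division by 6. DESeq2 gave no adjusted p for *Hp* in untreated CFs or in the fits of TGF-β with untreated cells. *Saa3* could not be fitted with a minimum of 10 in each library where untreated CFs took part, nor after division by 6 in untreated CFs alone. Without the libraries with liver transcripts the counts were 4 for si-IAMP-2 untreated (1 on all libraries) and 2 for each change under TGF-β (1 each). At a 1.5-fold threshold they were 2 for si-IAMP-2 untreated, 2 for the change of the si-IAMP-1 effect under IL-17 and 2 for that of the si-IAMP-2 effect under TGF-β, and at a 2-fold threshold they were 3 for si-IAMP-2 with IL-17 (5 as reported) and 2 for si-IAMP-1 with TGF-β (4 as reported).

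Reversed without the libraries with liver transcripts were *Hp* with si-IAMP-1 and si-IAMP-2 untreated (3.04 and 3.38), with IL-17 (2.98 and 3.20) and in the changes under TGF-β (-2.57 and -3.15), the change of the si-IAMP-1 effect on *Saa3* under IL-17 (0.97, adjusted p = 0.986) and that of the si-IAMP-2 effect on *Lcn2* (-0.50, adjusted p = 0.956). The cause was not tested.

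Leaving out 1 library at a time gave 1 to 4 genes for si-IAMP-2 untreated, 0 to 3 for the change of the si-IAMP-1 effect under TGF-β and 0 to 2 for that of si-IAMP-2. Signs changed for *Hp* with si-IAMP-1 and si-IAMP-2 untreated (-1.21 to 3.04 and -0.86 to 3.38), for *Slc39a14* between the siRNAs untreated (-0.022 to 0.0668) and for *Ptx3* in hearts (-0.47 to 0.34). Changes of the si-IAMP-1 effect under IL-17 ran from -0.81 to 0.25 for *Lcn2*, -4.45 to 0.36 for *Saa3* and -4.14 to 0.17 for *Hp*, and those of si-IAMP-2 from -0.46 to 0.61, -3.68 to 1.78 and -4.27 to 0.0358. Under TGF-β the si-IAMP-1 change ran from -0.0299 to 0.077 for *Ptx3* and -2.57 to 1.67 for *Hp*, and the si-IAMP-2 change from -3.15 to 1.10 for *Hp*. None of these was called on all libraries.

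Libraries with the same replicate number did not stand out as more alike. Their correlations ran from -0.0966 to 0.0716 untreated, -0.063 to 0.0363 with IL-17 and -0.192 to 0.0437 with TGF-β. For libraries with other numbers they ran from -0.123 to 0.199, -0.0511 to 0.0435 and -0.0985 to 0.226. This cannot tell whether the samples were paired by design. With the number as a replicate block, 2 genes were called for si-IAMP-2 untreated, *Steap4* passing at 1.03, and *Hp* was 0.54 and 0.89 there (adjusted p = 0.834 and 0.688), and the block changed no other call. The heart columns carry no number.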
